A study of Mus musculus with 8 samples.

Results

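The TSC22 domain family comprises 4 genes, TSC22D1 to TSC22D4, and all 4 have a row among the 33514 rows of the count table. The members were taken by symbol, and the family was selected on its measured counts in the siHoxa5 against the siN libraries. That difference is therefore given for the members as a description, without a test. Of the 4 members, 3 had counts and passed the filter on low counts, and TSC22D4 had none.

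The libraries are RNA-seq of cultured adult cardiomyocytes, the contractile cells of the heart, from C57BL/6 mice. A control siRNA (siN, 4 libraries) or an siRNA against Hoxa5 (siHoxa5, 4 libraries), a homeobox transcription factor, was transfected. Both groups received phenylephrine, an alpha1-adrenergic agonist used to induce hypertrophic growth, at 100 µM for 24 h, beginning 24 h after transfection. No library without phenylephrine was used here, so a response to phenylephrine was not measured. The labels give neither the age of the mice nor the mouse or culture behind each repeat, so the spread between libraries may be technical.

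TSC22 domain proteins share a conserved stretch, the TSC box, followed by a leucine zipper through which they pair with one another. TSC22D1 was first isolated as a transcript induced by TGF-beta, and TSC22D3, also called GILZ, is a classical target of the glucocorticoid receptor that restrains inflammatory transcription factors. Long forms of TSC22D1, TSC22D2 and TSC22D4 bind the pseudokinase NRBP1 and the WNK kinases, which control ion transport and cell volume, and TSC22D2 transcript rises under hyperosmotic stress in kidney cells.

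The 4 genes resemble each other most within the part that encodes this domain. The best-matching ungapped window of 60 coding bases is shown for each mouse gene, read from the GENCODE M21 transcripts on the coding strand, because it shows how far reads of 1 member could be mistaken for those of another. Capitals mark the 32 bases identical in all 4 of the transcripts used.
Tsc22d1: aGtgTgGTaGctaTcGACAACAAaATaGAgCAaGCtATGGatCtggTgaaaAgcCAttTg
Tsc22d2: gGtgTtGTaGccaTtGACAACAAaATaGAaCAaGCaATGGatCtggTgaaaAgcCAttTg
Tsc22d3: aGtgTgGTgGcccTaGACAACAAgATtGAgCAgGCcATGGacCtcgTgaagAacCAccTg
Tsc22d4: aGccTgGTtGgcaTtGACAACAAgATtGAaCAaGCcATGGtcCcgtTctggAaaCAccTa
In every member the window crosses an exon junction. In the transcript with the longest coding sequence it covers coding bases 2938 to 2997 of 3231 in Tsc22d1, 2011 to 2070 of 2307 in Tsc22d2, 328 to 387 of 603 in Tsc22d3 and 916 to 975 of 1527 in Tsc22d4. Tsc22d1 and Tsc22d2 were the closest pair, with 54 of 60 bases identical. Tsc22d1 and Tsc22d4 were the most distant in the transcripts used, with 37 of 60. These counts and the 32 shared bases hold for 1 transcript per gene. Other coding transcripts, such as a Tsc22d4 transcript with 1161 coding bases, were not compared in this window, and the choice may change the distances. Over whole transcripts, the longest run of identical bases between any transcripts of 2 members was 32, between Tsc22d1 and Tsc22d2, and it was 14 to 16 for the other 5 pairs. The counting of reads that match several genes is not described in the labels.

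The mouse genes lie on 4 chromosomes (GRCm38, GENCODE M21), and all are protein-coding. Tsc22d1 (ENSMUSG00000022010.19) is at chr14:76414961-76507765 on the plus strand, with 16 annotated transcripts, long and short. Tsc22d2 (ENSMUSG00000027806.9) is at chr3:58414715-58466783 on the plus strand, Tsc22d3 (ENSMUSG00000031431.13) at chrX:140539528-140600659 on the minus strand and Tsc22d4 (ENSMUSG00000029723.16) at chr5:137745730-137768450 on the plus strand. No other annotated gene overlaps any of them in this annotation. The counts are per gene, so long and short forms of TSC22D1 were not separated.

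Library totals ranged from 635824.5 to 658192 counts in siN and from 560190 to 619941.5 in siHoxa5, without overlap. The part of this depth in the group differences was not tested. The submitters' processing notes name the mouse build mm10, but nearly all rows carry symbols in capitals as for human genes: 19 rows are spelled as a mouse symbol, 27 carry a date in place of a symbol, and 302 rows with a count have no mouse namesake. HOXA5, the siRNA target, had 8 counts summed over the siN libraries and 9 over the siHoxa5 libraries, a rate 1.23 times that of siN (exact 95% limits 0.421 and 3.66, counting error only). No fall was detected, and a ratio below the lower limit lies outside this interval, while a weaker knockdown could not be seen at this depth. Every direction below is that of libraries grouped by their labels alone. Of 13 cardiomyocyte markers, 10 had counts, while PLN, MYL2 and TNNI3 were at 0. The siHoxa5 libraries 2 and 4 stood apart on the first principal component, at -10.77 and -10.95. On it siHoxa5 libraries 1 and 3 lay at -2.74 and -4.69, and siN at 6.30 to 7.77. On the second component siHoxa5 libraries 2 and 4 lay far from each other, at 8.30 and -13.41. They also had the lowest totals, 560190 and 574882.5 counts.

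TSC22D1 was the member with the most counts and was lower in every siHoxa5 library than in any siN library. The siN libraries 1 to 4 had 511, 477, 499 and 523 counts, which are 786, 757, 785 and 801 CPM (counts divided by the TMM-scaled library total and put on a common scale). The siHoxa5 libraries 1 to 4 had 299, 341, 325 and 290 counts, or 488, 621, 530 and 527 CPM. The groups did not overlap; siHoxa5 library 2 was the highest of its group and library 1 the lowest. The means were 782 ± 18.3 CPM in siN and 542 ± 56.3 CPM in siHoxa5 (SD, n = 4 each), a fitted log2 fold change of -0.53 (SE 0.07), or 0.691-fold. In bulk libraries fewer cells of a type and less RNA per cell cannot be told apart.

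TSC22D2, the member closest to TSC22D1 in sequence, had higher values in 3 siHoxa5 libraries than in any siN library. In siN libraries 1 to 4 its counts were 138, 142, 161 and 125, which are 212, 225, 253 and 192 CPM. In siHoxa5 libraries 1 to 4 they were 159, 156, 154 and 148, which are 260, 284, 251 and 269 CPM. The groups overlapped, because siN library 3 lay just above siHoxa5 library 3. The means were 221 ± 25.9 and 266 ± 14.2 CPM (SD, n = 4 each), with a log2 fold change of 0.27 (SE 0.11).

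TSC22D3, the glucocorticoid-inducible member, was counted far less often. Its siN counts were 38, 33, 37 and 41 in libraries 1 to 4, or 58.5, 52.4, 58.2 and 62.8 CPM. Its siHoxa5 counts were 51, 49, 44 and 29, or 83.3, 89.3, 71.7 and 52.7 CPM. Libraries 1 to 3 of siHoxa5 lay above every siN library, whereas siHoxa5 library 4 lay at the lower end of the siN range. The means were 58.0 ± 4.28 and 74.3 ± 16.1 CPM (SD, n = 4 each), with a log2 fold change of 0.36 (SE 0.19), which is 0.48 without siHoxa5 library 4 and 0.26 without siHoxa5 library 2.

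TSC22D4 had 0 counts in all 8 libraries, as most rows did, since only 7926 of all 33514 rows had any count. A count of 0 allows up to 3 counts, which correspond to 4.60 to 5.46 CPM in these libraries, for counting error only. The heart markers PLN, MYL2 and TNNI3 were also at 0, so the zero may set no limit on expression, and its cause was not tested. No difference between the groups can be given for it.

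**Figure D1:**
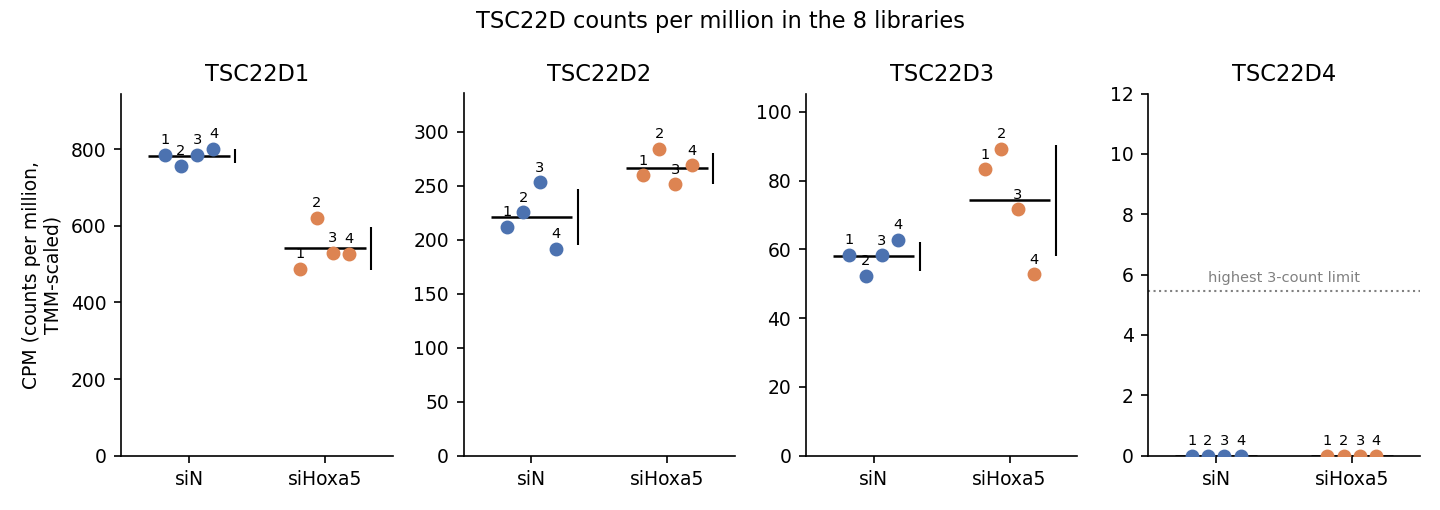
CPM of each member (vertical axis from 0, a separate scale per gene) in the 4 siN and 4 siHoxa5 libraries; each point is a library with its number, the horizontal line is the mean and the vertical bar 1 SD to either side. TSC22D1 separates the groups, at 757 to 801 CPM against 488 to 621 CPM, TSC22D2 and TSC22D3 overlap, and TSC22D4 lies at 0, below the dotted line for 3 counts.

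Among the 3 tested members 1, TSC22D1, passed the edgeR threshold (adjusted p under 0.05 over 3020 genes), where 7.12% of all tested genes did, 3.38% lower and 3.74% higher. It was also the only member whose groups did not overlap, which held for 12% of tested genes, 5.76% lower and 6.19% higher. Both counts come from the contrast that put the family forward and are not evidence about it. Of the 3020 tested genes 107 had a lower log2 fold change than TSC22D1, 419 a higher one than TSC22D2 and 274 a higher one than TSC22D3.

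The values of the 3 members kept their signs under every one of 17 alternative settings. TSC22D1 ranged from -0.61, without siHoxa5 libraries 2 and 4, to -0.48, without siHoxa5 library 1, and stayed past the threshold in all 17. TSC22D2 ranged from 0.20 to 0.34 and TSC22D3 from 0.26 to 0.48, and neither passed the threshold in any. All settings reuse these libraries and the contrast that put the family forward, so passing in them is not evidence about the family. The level of TSC22D1 in siHoxa5 library 2, one of the pair that stood apart, was the closest of its group to siN.

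**Figure D2:**
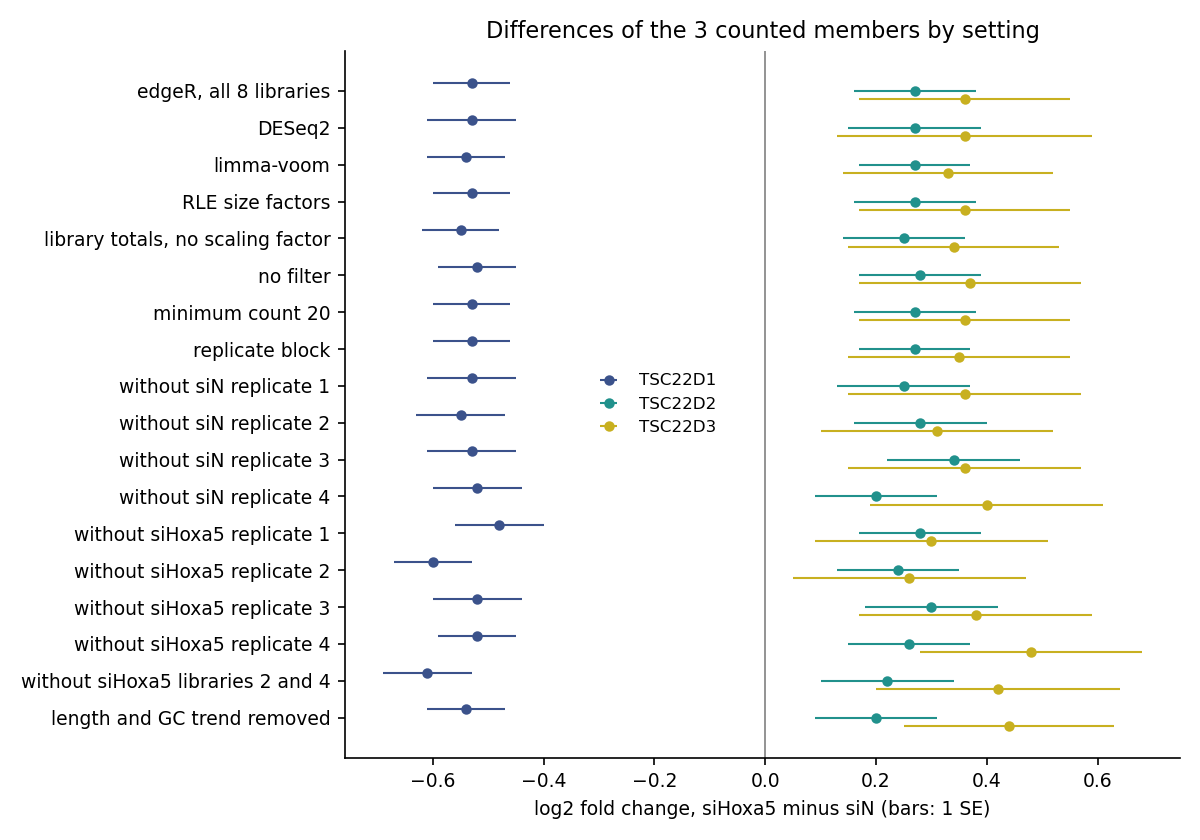
Fitted log2 fold change (horizontal axis, siHoxa5 minus siN) of the 3 counted members under each setting (rows), with bars of 1 SE. TSC22D1 lies between -0.61 and -0.48 throughout, and TSC22D2 and TSC22D3 lie above 0, between 0.20 and 0.48.

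The spread between libraries can be set beside the error of counting alone. For TSC22D1 the coefficient of variation of the CPM was 2.34% in siN, below the 4.46% that counting alone gives at that depth, and 10.4% in siHoxa5, where counting gives 5.65%. For TSC22D2 it was 11.8% in siN and 5.33% in siHoxa5, against 8.41% and 8.05% from counting. For TSC22D3 it was 7.38% and 21.7%, against 16.4% and 15.2%. TSC22D3 was thus measured least precisely, and its siHoxa5 libraries varied most.

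The make-up of the family does not depend on how libraries are scaled, because it is a ratio of counts within a library. TSC22D1 held 71.6% to 75.9% of the family's counts in the siN libraries and 58.7% to 62.5% in the siHoxa5 libraries, without overlap. TSC22D2 held 20.8% ± 2.15 in siN and 30.2% ± 1.47 in siHoxa5 (SD, n = 4 each). TSC22D3 held 5.46% ± 0.378 in siN and 8.404% ± 1.61 in siHoxa5. The shares of a library sum to 100%, so a lower share of 1 member raises those of the others. The whole family summed to 1061 ± 26.0 CPM in siN and 882 ± 75.7 CPM in siHoxa5.

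The ratio of TSC22D1 to TSC22D2 counts in siN libraries 1 to 4 was 3.70, 3.36, 3.10 and 4.18. In siHoxa5 libraries 1 to 4 it was 1.88, 2.19, 2.11 and 1.959. Every siHoxa5 library thus lay below every siN library, with library 1 the lowest and library 2 the highest of its group. The ratio of TSC22D2 to TSC22D3 counts overlapped between the groups, at 3.83 ± 0.618 in siN and 3.73 ± 0.933 in siHoxa5 (SD, n = 4 each).

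**Figure D3:**
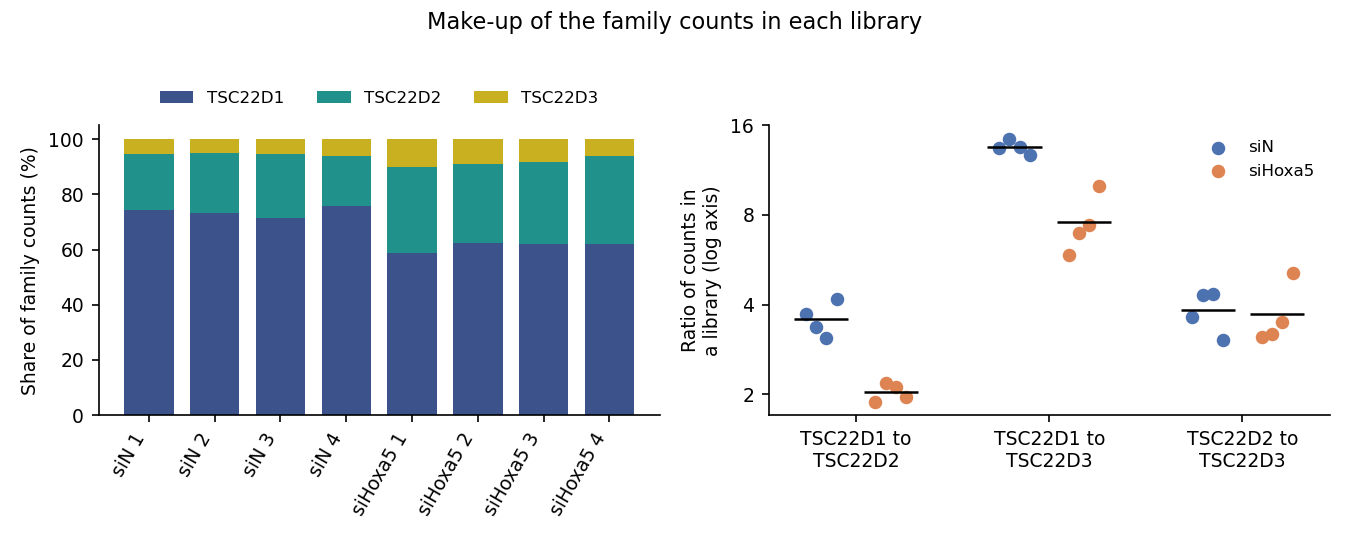
Left, share of the family's counts (percent, from 0) held by each counted member in each of the 8 libraries; right, ratio of counts between members within each library on a log axis, with the group mean as a line. TSC22D1 holds 71.6% to 75.9% in siN and 58.7% to 62.5% in siHoxa5, and the ratio of TSC22D2 to TSC22D3 overlaps between the groups.

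Levels of different genes were compared per kilobase of the longest annotated protein-coding transcript of the mouse gene. The lengths used are 4999 bases for Tsc22d1, 9799 for Tsc22d2 and 1974 for Tsc22d3. On this scale of level TSC22D1 was highest, at 157 ± 3.67 CPM per kilobase in siN and 108 ± 11.3 in siHoxa5 (SD, n = 4 each). TSC22D3 followed with 29.4 ± 2.17 and 37.6 ± 8.15, and TSC22D2 with 22.5 ± 2.65 and 27.2 ± 1.45.

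The place of TSC22D1 at the top holds for the length of any annotated protein-coding transcript. Its other coding transcripts are shorter, which raises its level. With their shortest coding transcripts TSC22D3 reaches 60.9 and 78.0 and TSC22D2 47.4 and 57.1 CPM per kilobase. All annotated exons together span 8994 bases for Tsc22d1, 11244 for Tsc22d2 and 4341 for Tsc22d3. With these lengths TSC22D1 stays first, but TSC22D2 lies above TSC22D3 in siN and in siHoxa5. The order of TSC22D2 and TSC22D3 thus depends on the length used and on which transcripts were present, and is uncertain. The labels do not name the gene models used for counting, and 3 abundant heart markers were at 0, so levels between genes are less certain than differences within a gene.

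Markers of cardiomyocytes and of other heart cells were also measured. The summed level of the cardiomyocyte markers was 75060 to 79970 CPM in siN and 94650 to 101100 CPM in siHoxa5. Of the 10 tested, 6 were called higher and 1 lower, against 3.74% higher and 3.38% lower over all tested genes. The 8 fibroblast markers summed to 10180 to 10850 CPM in siN and 10900 to 12850 CPM in siHoxa5. Nearly all of it came from the collagen genes COL1A1 and COL1A2, while LUM and TCF21 were at 0. Of the 2 fibroblast markers tested, COL1A1 was called higher (0.21, SE 0.04, edgeR adjusted p = 0.000195). Endothelial markers summed to at most 32.7 CPM, with PECAM1, CDH5, VWF, CLDN5 and EMCN at 0. Smooth muscle and pericyte markers reached at most 29.2 CPM, with CNN1, RGS5, PDGFRB and CSPG4 at 0, and macrophage and other immune markers at most 1.82 CPM, with 5 of 7 at 0. The 5 erythroid markers were all at 0, and the adipocyte and neural markers reached at most 45.7 CPM, with ADIPOQ, PLIN1 and S100B at 0. The part of the higher cardiomyocyte and fibroblast sums in the family's values was not tested.

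Genes of 6 pathways in which TSC22 domain proteins take part were tested in the same fit. The lists hold 102 genes, of which 83 had a count and 47 were tested. Of these 47, none rose and 3 fell (edgeR adjusted p under 0.05 over all 3020 genes). Over all tested genes 3.74% were higher and 3.38% lower. The median log2 fold change was -0.04, against 0.00 over all tested genes. A list had only 4 to 12 tested genes, so the number of calls in it says little about its pathway.

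The TGF-beta and SMAD pathway held 2 of the 3 genes that fell, among 12 tested with a median of -0.11. Over all tested genes 3.38% were called lower. LTBP1, which tethers latent TGF-beta to the matrix, had 385, 379, 395 and 357 CPM in siN libraries 1 to 4 and 300, 273, 280 and 224 CPM in siHoxa5 libraries 1 to 4. The groups did not overlap, which held in the lower direction for 5.76% of tested genes. The fitted log2 difference of LTBP1 was -0.49 (SE 0.09, edgeR adjusted p = 5.7e-05). SMAD7, the inhibitory SMAD of the pathway, had 666, 633, 748 and 719 CPM in siN and 562, 481, 546 and 635 CPM in siHoxa5. Its groups touched, since siHoxa5 library 4 lay just above siN library 2, with a fitted log2 difference of -0.31 (SE 0.07; edgeR, adjusted p = 0.00157).

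The other 10 tested genes of this pathway did not pass. SMAD2, a receptor-regulated SMAD, had 0.46 (SE 0.25), with 26.0 to 33.8 CPM in siN and 34.6 to 55.5 CPM in siHoxa5. LTBP2, a matrix protein of the same family as LTBP1, had 0.46 (SE 0.21), and 0.24 without siHoxa5 library 1. TGFB3, the ligand with the most counts, had 921 ± 65.6 and 991 ± 76.2 CPM (SD, n = 4 each), and CTGF, a connective tissue growth factor induced by TGF-beta, had 398 ± 12.5 and 365 ± 27.2 CPM. The receptor genes TGFBR1 and TGFBR2 had too few counts to test.

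The third gene that fell belongs to the hyperosmotic list. LRRC8A, the obligatory subunit of the volume-regulated anion channel, had 674, 678, 713 and 769 CPM in siN libraries 1 to 4 and 565, 596, 541 and 611 CPM in siHoxa5 libraries 1 to 4. Every siHoxa5 library was below every siN library (log2 fold change -0.29, SE 0.07, edgeR adjusted p = 0.00245), as for 5.76% of tested genes. SLC38A2, an amino acid transporter induced by hypertonicity, had 227 ± 36.5 and 281 ± 21.9 CPM (SD, n = 4 each) and did not pass (0.30, SE 0.11, edgeR adjusted p = 0.059), although it did without siN library 3 (0.38) or siHoxa5 library 1 (0.34); it was smallest, at 0.23, without siN library 2. NFAT5, the transcription factor of the hypertonic response, had 0.22 (SE 0.13) and the taurine transporter SLC6A6 -0.16 (SE 0.09); with 1 library left out they ranged from 0.12 (without siN library 4) to 0.35 (without siN library 3) and from -0.25 (without siHoxa5 library 2) to -0.09 (without siHoxa5 library 1). The median of the 4 tested genes of this list was 0.03.

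None of the 10 tested genes of the WNK and NRBP list passed, where 7.12% of all tested genes did. Their median was 0.00. STK39, the kinase SPAK that WNK kinases activate, had the smallest p (-0.46, SE 0.17, edgeR adjusted p = 0.086), with 83.4 to 126 CPM in siN and 52.2 to 88.2 CPM in siHoxa5; it passed without siHoxa5 library 1 (-0.58) and was smallest, at -0.33, without siN library 4 or siHoxa5 library 3. NRBP1, the pseudokinase partner, had -0.16 (SE 0.09), at 325 ± 17.5 and 291 ± 9.51 CPM (SD, n = 4 each). SLC12A4, a potassium-chloride cotransporter, had -0.39 (SE 0.23). WNK1, the kinase with the most counts, had -0.01 (SE 0.08).

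Of 21 genes of the glucocorticoid receptor and its response only 6 were tested. None passed (median -0.05), where 7.12% of all tested genes did. NR3C1, the receptor itself, had 122 ± 18.4 and 108 ± 17.0 CPM (SD, n = 4 each; -0.17, SE 0.15). Its targets SGK1 and KLF9 had -0.43 (SE 0.37) and -0.06 (SE 0.08), and FOXO3 had 0.13 (SE 0.23). With 1 left out at a time, NR3C1 ranged from -0.29 (without siHoxa5 library 1) to -0.11 (without siN library 1), SGK1 from -0.61 to -0.18 (without siHoxa5 library 3), KLF9 from -0.15 (without siHoxa5 library 2) to 0.03 (without siN library 3) and FOXO3 from 0.01 (without siHoxa5 library 4) to 0.27 (without siHoxa5 library 3). PER1 and DUSP1, also in this list, had 0.08 (SE 0.25) and -0.04 (SE 0.22). FKBP5 and ZBTB16, further classical targets, had 1 and 8 counts in all libraries together, so TSC22D3 could not be set beside them.

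Proteins that GILZ binds or restrains gave 5 tested genes, with a median of -0.08. None was past the threshold, where 7.12% of all tested genes were. Among them the transcription factors CEBPB and JUN had -0.61 (SE 0.35) and -0.08 (SE 0.12), which were -0.39 and 0.00 without siHoxa5 library 2; JUN was -0.02 without siN library 3. Of AKT and insulin signalling genes 10 were tested and none passed (median 0.06), against the same 7.12% of all tested genes. PDPK1, the kinase that activates AKT, had -0.63 (SE 0.30), AKT1 0.21 (SE 0.11) and FNIP1, a partner of folliculin, 0.28 (SE 0.17). With 1 library left out these values were as small as -0.36 for PDPK1 (without siN library 1), 0.13 for AKT1 (without siN library 2) and 0.09 for FNIP1 (without siHoxa5 library 4).

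**Figure D4:**
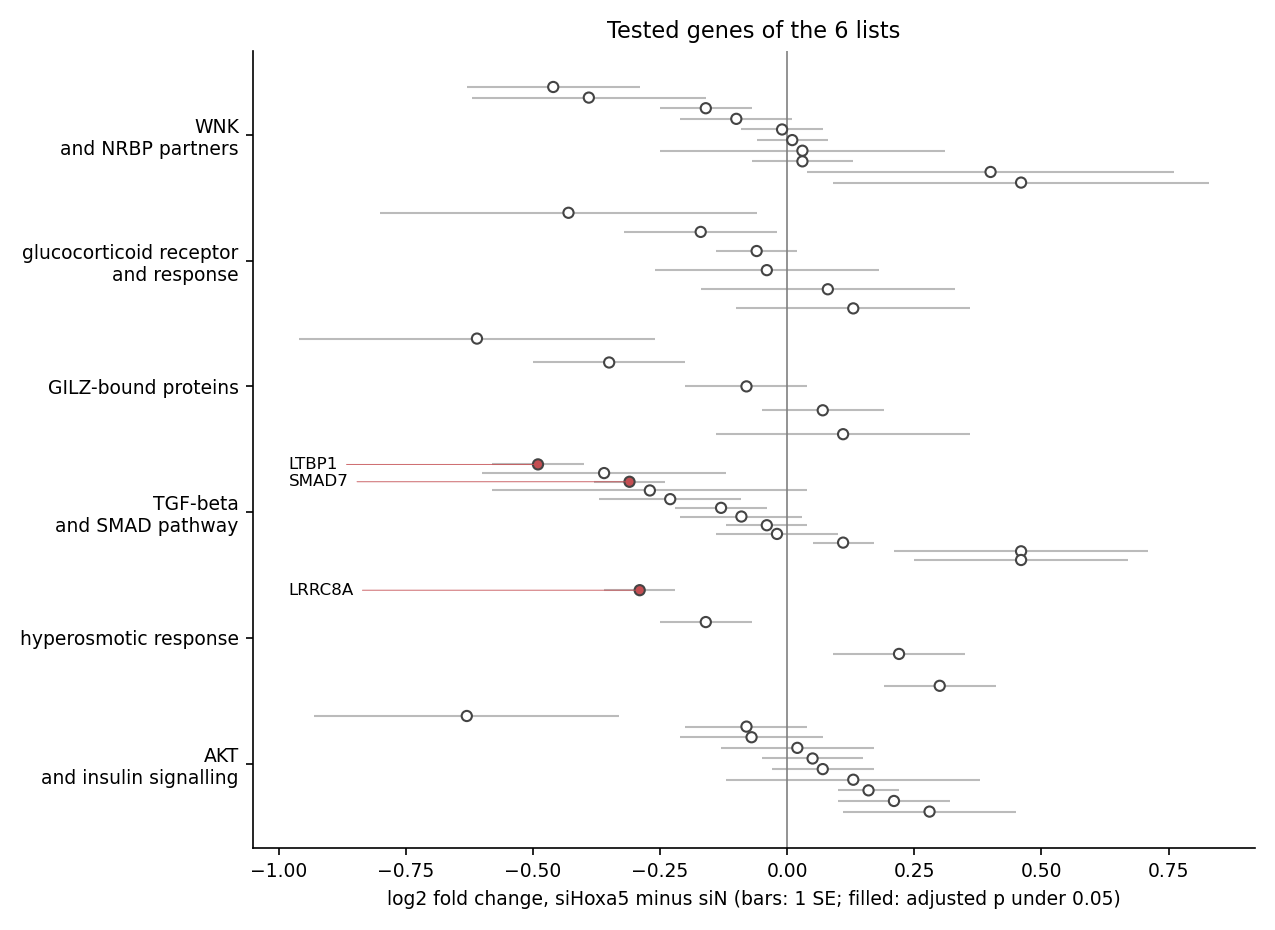
Log2 fold change (horizontal axis, siHoxa5 minus siN) of every tested gene of the 6 lists (rows), with bars of 1 SE; filled points passed the edgeR threshold. The 3 filled points, LTBP1, SMAD7 and LRRC8A, lie at -0.49, -0.31 and -0.29.

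The genes with the most similar pattern were sought among 2788 tested genes of at least 20 CPM, by the root mean square difference of log2 CPM over the 8 libraries after centring each gene on its mean. All points share the same libraries and the group difference. Closest to TSC22D1 were PPID, a cyclophilin (0.090), CHMP1B, an ESCRT-III subunit (0.101), SGMS1, a sphingomyelin synthase (0.111), SEC22B, a SNARE of ER-to-Golgi transport (0.123), and HSPA5, the chaperone BiP (0.125). The median over all genes was 0.342. For TSC22D2 the closest included MSANTD2 (0.061), PCDH7, a protocadherin (0.066), PHF20L1 (0.083) and TJP1, the tight junction protein ZO-1 (0.085), against a median of 0.266. For TSC22D3 they were MIER1 (0.130), KDELC2 (0.131), the repressor ZEB1 (0.138), LARP1, an RNA-binding regulator of translation (0.140), and PCNX1 (0.144), against a median of 0.330.

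Promoter windows of 250 bases before an annotated start were in the RefSeq-based table (GRCm38.p6) for 2 of the 4 members, with 5 windows for Tsc22d1 and 3 for Tsc22d3. The letters searched, on both strands with overlaps counted, were of 5 kinds. The core bound by homeodomain proteins is TAAT, and its longer form is TAATTA. The part of the glucocorticoid receptor site searched is TGTTCT. The cAMP response element is TGACGTCA. The letters of the TATA box are TATAAA. The core TAAT occurred in 2 of the 5 Tsc22d1 windows and in 2 of the 3 Tsc22d3 windows. The most matches were 5, in chr14:76503976-76504225 before a short transcript, a window that overlaps an annotated exon of Tsc22d1. TAAT occurs in 54.9% of the 32851 windows in the table, and 5.5% hold at least 5. That share is for a single window, whereas the window with 5 matches was the highest of the 8 searched. TGTTCT occurred in 1 window of each gene and in 16.1% of all windows, and TATAAA in 1 Tsc22d1 window and in 12.4% of all. Neither TAATTA (4.8% of all windows) nor TGACGTCA (1.5%) occurred in any of the 8 windows.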

How the data were processed

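The values deposited by the authors are estimated counts, unscaled, by gene symbol, and whole numbers outside 4 rows. The build mm10 and the tools STAR 2.6.1b, FastQC 0.11.8, R 3.5.3 and HTSeq are named in the submitters' processing notes. For annotation, strand and multi-gene reads the setting is not given in the sources. All 8 library files were identical to their columns of the series table. Groups and repeat numbers came from the sample titles.

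Values were rounded and tested with edgeR 4.0.16 (quasi-likelihood, robust, TMM, filterByExpr with a minimum count of 10 and total of 15; limma 3.58.1, R 4.3.3), with the group as the only term and Benjamini-Hochberg adjustment over the 3020 genes kept. CPM were taken over the TMM-scaled totals of those genes. Adjusted p-values in the text are from this test. Intervals and the limit of 3 counts cover counting error only. Alternatives were DESeq2 1.42.0, limma-voom, other scalings and filters, a replicate block, left-out libraries and an offset for transcript length and GC content.

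The members and the gene lists were chosen with earlier results of these data known. Named genes are the members, in each list up to 4 tested genes with the smallest p, and for each counted member the 5 genes with the most similar pattern; some genes the rule picks are not reported here. WNK1, TGFB3, CTGF (listed as CCN2), TGFBR1, TGFBR2, PER1, DUSP1, FKBP5, ZBTB16, GSK3B, IGF1R and the genes at 0 fall outside that rule. They were chosen after their values were seen.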

Additional observations from a re-analysis of the deposited data

Results flagged for a closer look

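Among the 23 members and listed genes named, each group of 4 libraries was examined for a library set apart, by the gap to its nearest neighbour over the group's range (Dixon's 95% limit for 4 values). Of 46 groups 4 held such a library, where chance alone gives about 1 in 20, or 2.3. None was a TSC22 domain gene. NRBP1 was low in siN library 2, at 298 CPM against 330 to 335 CPM in the other siN libraries (188 counts against 210 to 218). SLC12A4 was high in siN library 1, at 53.8 CPM against 50.4 to 50.8 CPM (35 counts against 32 to 33). SMAD2 was low in siN library 4, at 26.0 CPM against 33.1 to 33.8 CPM (17 counts against 21 to 22). PDPK1 was high in siN library 1, at 49.2 CPM against 25.2 to 29.1 CPM (32 counts against 16 to 19). The rule takes no account of counting error, and some of these gaps are only a few counts wide.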

How the results depend on the processing

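The 215 calls over all genes became 119 with DESeq2 and 143 without siHoxa5 libraries 2 and 4, and ranged from 145 to 260 with 1 library left out at a time. Of the 215 calls 113 were higher and 102 lower, against 96 and 67 without a filter and 99 and 120 with library totals and no scaling factor. In the pathway lists LTBP1, SMAD7 and LRRC8A passed under every alternative run, and the number past the threshold ranged from 3 to 5 with 1 library left out (5 without siHoxa5 library 1). The causes of these shifts were not tested. Among listed genes that did not pass, the sign turned for KLF9 without siN library 3 (0.03; range -0.15 to 0.03 with 1 library left out), for JUN without siHoxa5 library 2 (0.00; range -0.12 to 0.00) and without siHoxa5 libraries 2 and 4 (0.05), and for FOXO3 without those 2 libraries (-0.14). With the repeat number as a replicate block 250 genes were called, 4 of them in the lists (SLC38A2 in addition, at 0.31), and the members had -0.53, 0.27 and 0.35. Deviations of same-numbered libraries had correlations across genes of -0.02 to 0.066, against -0.05 to 0.043 for libraries of different number. Of 8 libraries 4 were closest to their own number, each with 4 candidates. These small values cannot decide whether the numbers mark pairs. The labels do not say so, and the numbers were not taken as pairs. Depth limits TSC22D3, with 29 to 51 counts a library.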

Other observations

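Zeros were common in these data, where only 7926 of all 33514 rows had any count. Of the 102 listed genes 19 had 0 counts in all 8 libraries, as TSC22D4 did. They include RELA, the NF-kappaB subunit that GILZ binds, HRAS, the insulin receptor INSR, the kinase GSK3A, GLUL, glutamine synthetase, and PDK4, the pyruvate dehydrogenase kinase that glucocorticoids and fasting induce. Related genes were counted in the same libraries: GSK3B had 1452 counts in all and IGF1R 942. These genes were chosen after their values were seen, and the cause of the zeros was not tested.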
